A study of Mus musculus with 48 samples.

Results

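The TNF and TNF receptor superfamily was followed through 10 genes of the 24973 in the deposited table, which were the rows for Tnf, Tnfrsf1a, Tnfrsf1b, Tnfrsf9, Tnfrsf12a, Tnfrsf10b, Eda2r, Fas, Ltbr and Cd40. All 10 were found. Adult wild-type C57BL/6 male mice underwent transient occlusion of the right middle cerebral artery (tMCAO) for 1 h with 23 h of reperfusion, and 4 cell types of the neurovascular unit (NVU) were sorted from each hemisphere. The ipsilateral hemisphere held the infarct, and the contralateral hemisphere of the same mice served as the control, so that no sham-operated or untreated animals entered these comparisons. RNA-sequencing covered microglia (CD11b-positive with low CD45), astrocytes (ACSA2-high), pericytes (NG2- and PDGFRβ-positive) and endothelial cells (VE-cadherin-positive), the last 3 from a CD45-negative gate meant to leave out immune cells, with 6 libraries per cell type and hemisphere and 48 in all. Each library came from a pool of 3 to 4 mice, so that the spread described here is between pools. In such bulk samples, fewer cells of a type and less RNA per cell cannot be told apart.

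TNF is made as a membrane-bound trimer and is released by proteolytic shedding. Its receptors recruit TRAF adaptors and, where they carry a death domain, TRADD or FADD, and from there reach NF-κB, MAP kinases or caspase-8. TNFR1, encoded by Tnfrsf1a, is found on most cells, whereas TNFR2, encoded by Tnfrsf1b, is best known from myeloid, lymphoid and endothelial cells. In the ischemic brain, microglia are a well-known source of TNF, and cytokine signalling at the vessel wall is a known route to loss of blood-brain barrier function.

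The deposited values are normalised read counts, rounded to whole numbers. They summed to between 10549900 and 16942165 per library, for an estimated 4900000 to 17100000 reads on genes, and 3 reads corresponded to 2.01 to 7.10 normalised counts depending on the library, a floor that covers counting error only. The titles of 12 ipsilateral samples exchange pericytes and microglia relative to the column labels of the table, and the column labels were followed. Under these labels, all 4 endothelial, 4 pericyte, 4 astrocyte and 10 microglia markers were higher in the lowest library of their own cell type than in the highest library of any other. Microglia markers still differed among the libraries of the other cell types. The summed level of the 10 markers was 1468 to 107426 normalised counts in replicates 1 to 4 of endothelial cells, pericytes and astrocytes, but 599 to 3517 in replicates 5 and 6, against 408763 to 819221 in microglia themselves. It is given below beside each gene it moves with.

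Sequence upstream of the transcription start was available from RefSeq (build GRCm38.p6) for 8 of the 10 genes, with 9 start sites, since Tnfrsf9 had 2. The windows of Tnf and of the 4 receptors called between hemispheres (Tnfrsf9 with both starts, Tnfrsf1a, Tnfrsf12a and Eda2r) are shown, so that the sequence at the starts of the genes the results turn on can be read. Their 250 bases are chr17:35202008-35202257 on the minus strand for Tnf, chr4:150919905-150920154 and chr4:150927749-150927998 on the plus strand for the upstream and downstream starts of Tnfrsf9, chr6:125349473-125349722 on the plus strand for Tnfrsf1a, chr17:23677450-23677699 on the minus strand for Tnfrsf12a and chrX:97377210-97377459 on the minus strand for Eda2r. Each is printed 5′ to 3′ and ends at the base before the start site. Capitals mark matches to the NF-κB site (searched by its κB consensus), to the AP-1 site TGANTCA or to the TATA box TATAAA, searched on both strands, and a window without capitals held none of them.
Tnf: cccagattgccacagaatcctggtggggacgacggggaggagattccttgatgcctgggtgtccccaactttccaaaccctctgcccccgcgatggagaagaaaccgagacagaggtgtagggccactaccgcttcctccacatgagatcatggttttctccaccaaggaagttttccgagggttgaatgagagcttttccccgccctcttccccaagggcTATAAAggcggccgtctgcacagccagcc
Tnfrsf9 upstream start: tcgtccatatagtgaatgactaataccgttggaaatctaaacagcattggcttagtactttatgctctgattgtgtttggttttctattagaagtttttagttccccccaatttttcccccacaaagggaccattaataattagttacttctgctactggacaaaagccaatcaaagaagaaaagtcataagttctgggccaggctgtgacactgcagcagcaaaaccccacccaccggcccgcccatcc
Tnfrsf9 downstream start: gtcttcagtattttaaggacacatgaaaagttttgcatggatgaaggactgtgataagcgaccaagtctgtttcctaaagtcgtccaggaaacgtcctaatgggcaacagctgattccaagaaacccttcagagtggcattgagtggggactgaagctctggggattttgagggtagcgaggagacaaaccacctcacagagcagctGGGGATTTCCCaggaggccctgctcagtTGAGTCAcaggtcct
Tnfrsf1a: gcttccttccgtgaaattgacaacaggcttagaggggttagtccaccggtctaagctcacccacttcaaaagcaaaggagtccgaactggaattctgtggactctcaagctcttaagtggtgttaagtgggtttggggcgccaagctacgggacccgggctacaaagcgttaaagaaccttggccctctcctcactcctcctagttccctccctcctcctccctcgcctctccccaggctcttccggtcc
Tnfrsf12a: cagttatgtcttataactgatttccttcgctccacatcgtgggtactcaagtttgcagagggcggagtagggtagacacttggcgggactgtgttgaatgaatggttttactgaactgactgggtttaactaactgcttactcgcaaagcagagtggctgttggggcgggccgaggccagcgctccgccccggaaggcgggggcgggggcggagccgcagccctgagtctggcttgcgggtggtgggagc
Eda2r: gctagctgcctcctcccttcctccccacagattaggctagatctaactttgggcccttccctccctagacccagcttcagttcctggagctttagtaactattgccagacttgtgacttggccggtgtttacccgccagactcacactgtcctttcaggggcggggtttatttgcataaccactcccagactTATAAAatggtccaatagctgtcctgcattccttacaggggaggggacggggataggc
The downstream Tnfrsf9 start lies 7844 bases into the deposited gene, and its window held overlapping κB matches from positions -43 and -42 and an AP-1 match at -15. The Tnf window held TATAAA at -29 and the Eda2r window at -58, counted from the start site. Fas had an AP-1 match at -211. Of 32851 promoter windows of the same length, 3.90% held a κB match, 6.75% an AP-1 match and 12.4% TATAAA. The p53 decamer, searched by name, of which a full response element holds a pair, was present in 7.13% of windows and was not matched in any of the 9. These matches describe letters in a window and do not show binding.

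In the contralateral hemisphere, the 10 genes differed in the cell type that held their highest level. Microglia had the highest level of the ligand, with Tnf at a mean of 11150 ± 6489 normalised counts (SD, n = 6), and also the highest Tnfrsf1b, at 5116 ± 444. Endothelial cells had the highest Fas, Cd40, Tnfrsf12a and Tnfrsf10b, at 4282 ± 1321, 329 ± 70.2, 2542 ± 2060 and 106 ± 46.5 respectively. Astrocytes had the highest Eda2r, although only at 13.0 ± 10.4. Tnfrsf1a was at 2151 ± 668 to 3701 ± 492 in all 4 cell types.

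**Figure D1:**
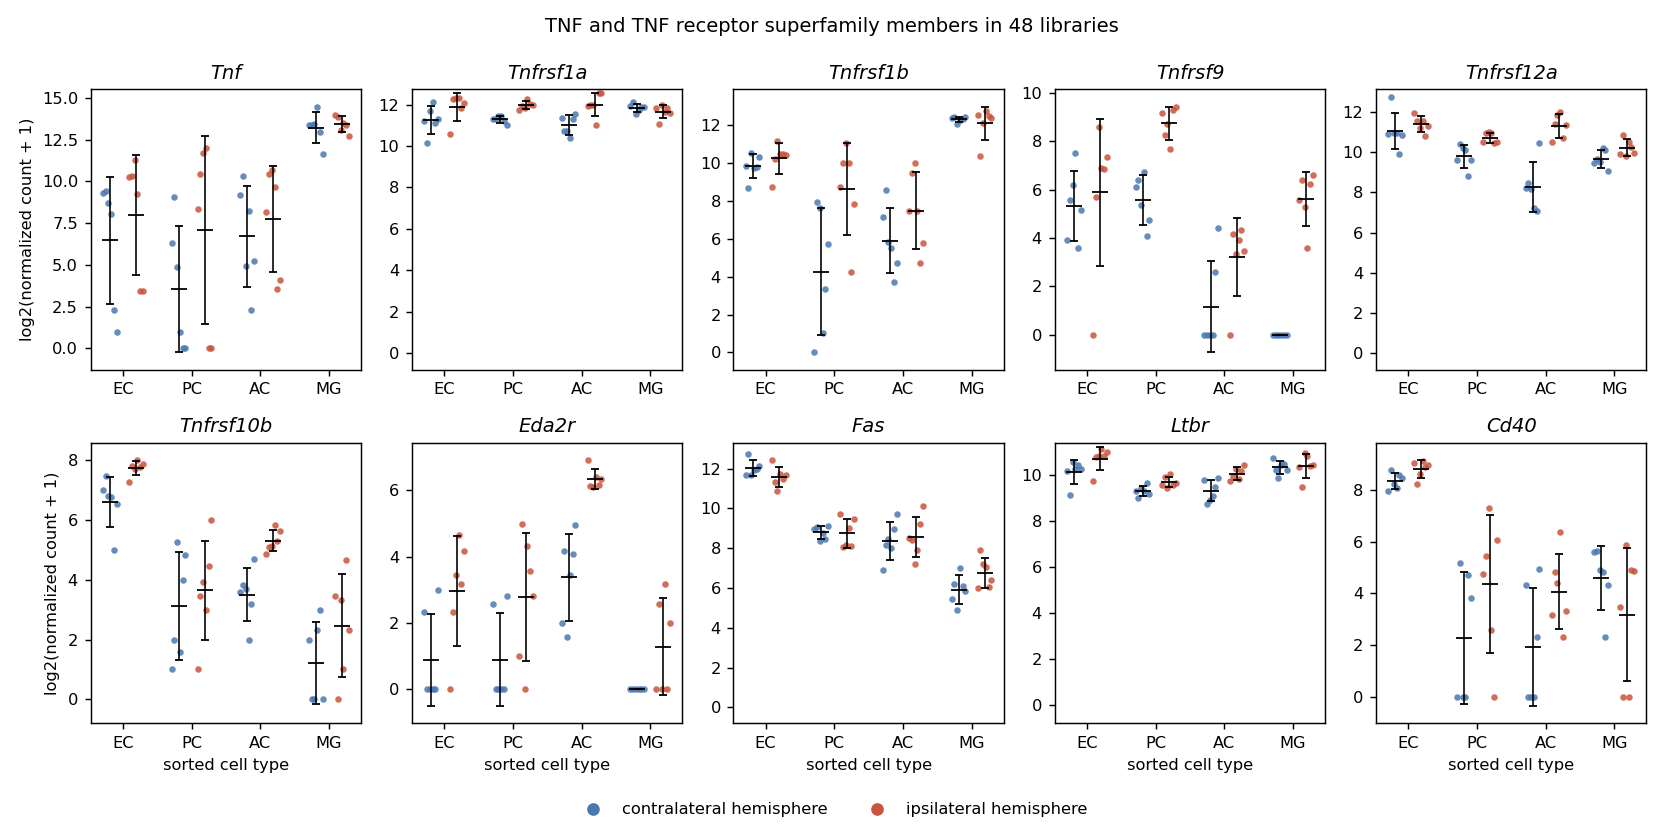
Levels of the 10 genes in all 48 libraries, as log2(normalised count + 1) on the vertical axis, by sorted cell type (EC endothelial cells, PC pericytes, AC astrocytes, MG microglia). Points are single libraries, horizontal marks are means and bars are 1 SD of the log2 values (n = 6 per hemisphere). Tnf and Tnfrsf1b were highest in microglia, Fas and Cd40 in endothelial cells, and Tnfrsf9 was at 0 in every contralateral microglia library.

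Compared per kilobase of exon, to allow comparison between genes, Tnf had the highest contralateral level of the 10 in microglia, at 6803 ± 3959 normalised counts per kb, ahead of Tnfrsf1a at 1428 ± 190 and Tnfrsf1b at 1340 ± 116. In endothelial cells the order per kb began with Fas at 2077 ± 641, Tnfrsf12a at 1316 ± 1066 and Tnfrsf1a at 1029 ± 440. Tnfrsf1a led in pericytes and astrocytes, at 973 ± 113 and 830 ± 258 per kb. Eda2r and Tnfrsf10b did not exceed 2.6 per kb in pericytes, astrocytes or microglia.

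The contralateral levels were tested between cell types in a fit of all 48 libraries on log2(normalised count + 1), counting as called a difference of at least 1.5-fold at p of 0.05 or less after Benjamini-Hochberg adjustment over all genes. Of 60 comparisons, 39 were called (41 with the replicate number as a block). By pair, the members called were 6 of 10 between endothelial cells and pericytes (34.6% of all genes tested), 8 of 10 between endothelial cells and astrocytes (49.1%), 7 of 10 between endothelial cells and microglia (41.6%), 3 of 10 between pericytes and astrocytes (45.4%), 6 of 10 between pericytes and microglia (48%) and 9 of 10 between astrocytes and microglia (50.7%). Cell types of the brain differed in a large share of all genes, and the counts are to be read against those shares.

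Of neighbours in the order of contralateral levels, Tnf stood higher in microglia than in astrocytes, the next cell type, by 6.52 ± 1.87 (log2, SE), with a limma adjusted p of 0.00298, and its levels in astrocytes, endothelial cells and pericytes were not distinguished. With the block, the pericytes were called lower than the astrocytes (adjusted p = 0.166 without and 0.0230 with it) and than the endothelial cells (0.237 and 0.0449). Tnfrsf1b was higher in microglia than in endothelial cells by 2.50 ± 0.99 (adjusted p = 0.0386) and higher in endothelial cells than in astrocytes by 3.91 ± 0.99 (adjusted p = 0.000935). Fas, the receptor of Fas ligand with a death domain, was higher in endothelial cells than in pericytes by 3.22 ± 0.40 (adjusted p = 8.5e-09) and higher in astrocytes than in microglia by 2.45 ± 0.40 (adjusted p = 1.5e-06). Cd40, a costimulatory receptor, was higher in endothelial cells than in microglia by 3.74 ± 1.08 (adjusted p = 0.00398). For Tnfrsf1a, no neighbours in the order were called, but the ends of the order were, with astrocytes minus microglia at -0.83 ± 0.26 (limma adjusted p = 0.00547).

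The second question was how each gene differed between the hemispheres of the same pools. The test was limma on log2(normalised count + 1) in the 12 libraries of a cell type, over all genes with a mean of at least 10, and a gene was called regulated where it changed at least 1.5-fold, at an adjusted p no larger than 0.05, and had more than 10 normalised counts in all 6 libraries of a hemisphere. This main fit left out the pairing of the hemispheres, so that its errors include the spread between pools. The fit with the replicate block, given beside it, takes the pairing in, with the same replicate number taken as the same pool. In pericytes, Tnfrsf9 and Tnfrsf1a were called, 2 of the 9 members tested (1.02% of all genes tested). In astrocytes, Tnfrsf12a and Eda2r were called, 2 of 9 (0.341%), and in microglia Tnfrsf9 alone, 1 of 8 (10.6%). In endothelial cells limma called 0 of 9 (0.491%), with 1 member, Tnfrsf10b, at an unadjusted p under 0.05, beside 1581 of all 13242 genes tested. All 5 calls were to higher levels in the ipsilateral hemisphere.

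With the replicate number as a block, which compares the hemispheres of the same pool, Tnfrsf12a in pericytes and Tnfrsf1a in astrocytes were called as well, for 3 of 9 members in pericytes (1.66% of all genes), 3 of 9 in astrocytes (1.59%), 1 of 8 in microglia (11.0%) and 0 of 9 in endothelial cells (0.551%), where 2 were at an unadjusted p under 0.05. Of all genes tested in endothelial cells with the block, 1795 of 13242 were at such a limma p. The median log2 change of the members tested was 1.58 in astrocytes, beside -0.06 over all genes tested, 0.93 beside -0.04 in pericytes, 0.58 beside -0.03 in endothelial cells and 0.14 beside -0.18 in microglia, so that microglial changes are also to be read against a median shift of -0.18. The members had been chosen with earlier results of these data known. Their medians and shares of calls are therefore not those of an independent set. Members below the mean of 10 were not tested, namely Eda2r in endothelial cells, pericytes and microglia, Tnfrsf9 in astrocytes and Tnfrsf10b in microglia.

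**Figure D2:**
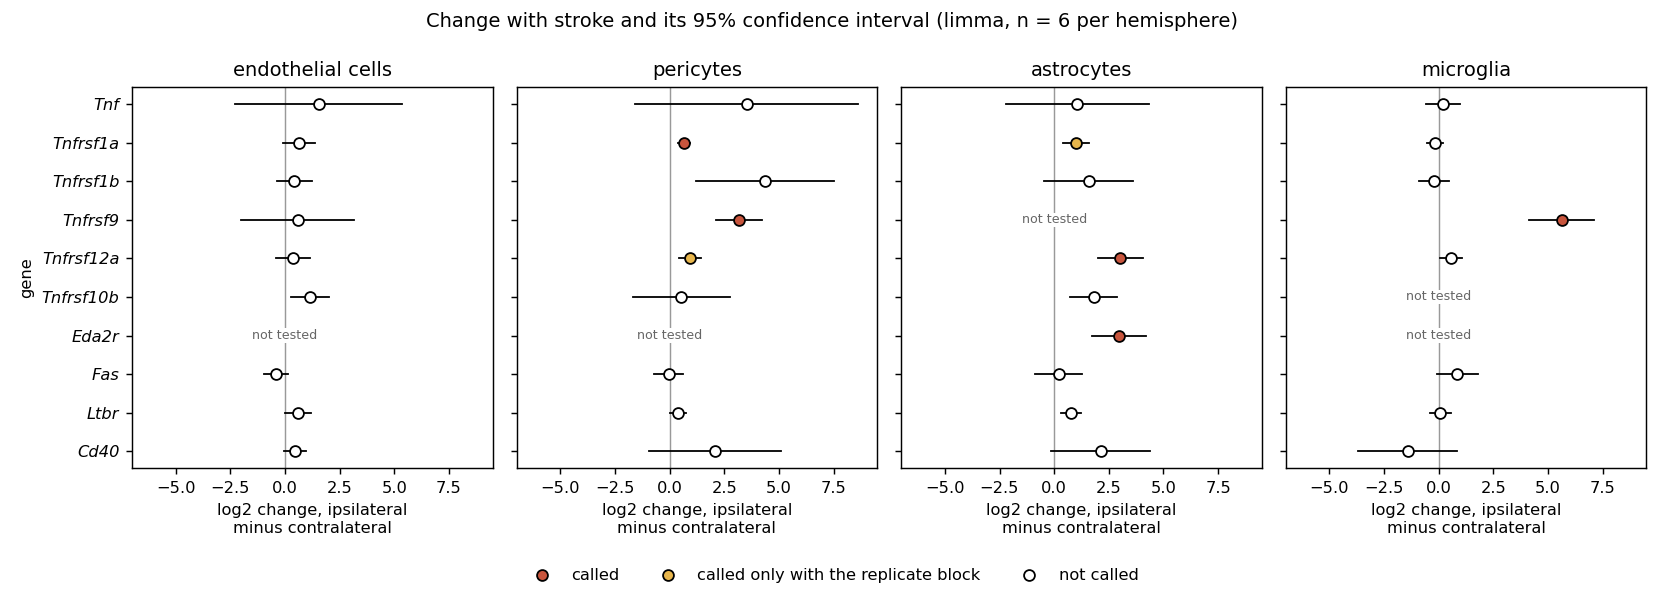
Change of each gene between hemispheres in each cell type, as log2 of ipsilateral minus contralateral on the horizontal axis, with bars for the 95% confidence interval from limma without the replicate block (n = 6 per hemisphere). Red points were called, yellow points were called only with the replicate block, and open points were not called; the red points lie at 3.17 and 0.68 in pericytes, 3.03 and 2.97 in astrocytes and 5.62 in microglia.

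Tnf (ENSMUSG00000024401, chr17:35199381-35202007, minus strand), the ligand, was abundant in microglia of both hemispheres and did not pass the test there. Over replicates 1 to 6 its normalised counts in microglia were 10638, 10876, 11164, 22900, 8104 and 3221 contralaterally and 16102, 14887, 8770, 11818, 10610 and 6853 ipsilaterally. The groups overlapped, and 4 of 6 pools were higher and 2 lower in the ipsilateral hemisphere. The change was 0.20 ± 0.36 (log2, SE), with a 95% interval from -0.57 to 0.98 and an adjusted p of 0.746, so that a change within that interval could not be told from none at this spread. The sign of this small value turned in replicates 1 to 4 alone, where it was -0.06. These are levels of cells after enzymatic digestion of the tissue and sorting, and what those steps added to Tnf was not tested.

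In endothelial cells, Tnf was 621, 698, 418, 260, 4 and 1 contralaterally and 1231, 1280, 2493, 600, 10 and 10 ipsilaterally. It was higher ipsilaterally in 6 of 6 pools, by 0.87 to 2.57 (log2), yet the levels of the pools within a hemisphere spanned a far wider range than that, with replicates 5 and 6 at 10 or less. The change was 1.54 ± 1.78 (adjusted p = 0.797), and 1.54 ± 0.39 with the block (adjusted p = 0.126). In pericytes Tnf was 78, 528, 29, 1, 0 and 0 contralaterally and 328, 1369, 3284, 4023, 0 and 0 ipsilaterally. Replicates 5 and 6 were at 0 in both hemispheres, and the other 4 pools were higher ipsilaterally (3.53 ± 2.38, adjusted p = 0.506, 0.233 with the block), and by 2.04 without replicate 4 to 4.24 without replicate 5 or 6. In astrocytes it was 594, 1269, 30, 303, 4 and 36 against 285, 1421, 1636, 809, 11 and 16, with 4 pools higher and 2 lower (adjusted p = 0.885).

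The Tnf level of these 3 cell types was in general higher where microglia markers were higher, but its share of the marker sum varied. In replicates 1 to 4 of the ipsilateral hemisphere, Tnf equalled 2.43% to 4.55% of the summed microglia markers in endothelial cells, 1.54% to 4.43% in pericytes and 2.90% to 5.46% in astrocytes, and 2.10% to 2.77% in microglia. Contralaterally, the same replicates gave 1.2% to 2.79%, 0.0681% to 1.26%, 0.543% to 2.92% and 1.30% to 2.98%. Where the marker sum was low, in replicates 5 and 6, Tnf did not exceed 36 normalised counts in any of the 3 cell types. Over both hemispheres, Tnf in these replicates equalled 0.0633% to 0.758% of the sum in endothelial cells and 0% in pericytes. In astrocytes it was 0.146% to 1.02%, against 0.415% to 1.75% in microglia. Neutrophil and monocyte markers were also higher in ipsilateral libraries of these cell types, with medians of 3036 and 1123 against 32.5 and 13.5 in pericytes and the neutrophil sum reaching 13946 there. These 3 cell types had been sorted as CD45-negative, a gate meant to leave out immune cells, and the part of these cells in the Tnf values was not tested.

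**Figure D3:**
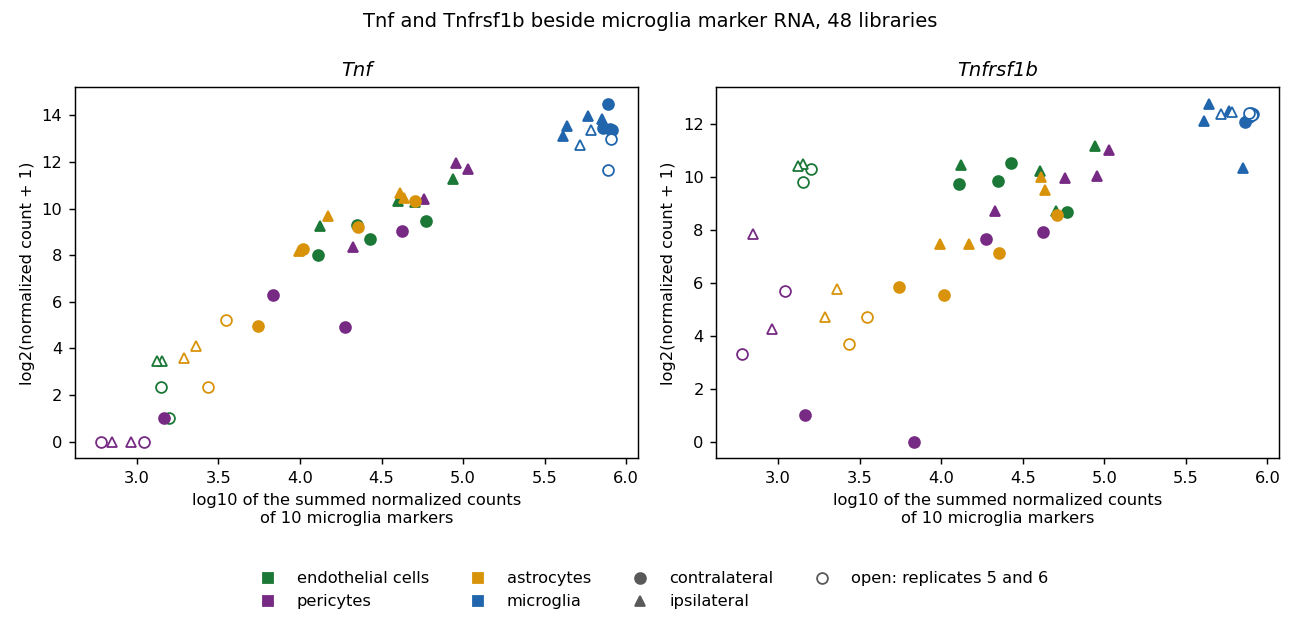
Tnf (left) and Tnfrsf1b (right) in all 48 libraries, as log2(normalised count + 1), against log10 of the summed normalised counts of 10 microglia markers. Colours are cell types, circles contralateral and triangles ipsilateral libraries, and open symbols are replicates 5 and 6. Tnf is in general higher at a higher marker sum, but at 0.0681% to 5.46% of it in replicates 1 to 4 outside microglia. Tnfrsf1b in endothelial cells stays at 414 to 2294 normalised counts across their range of the marker sum.

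Among the receptors of TNF, Tnfrsf1a (ENSMUSG00000030341, chr6:125349723-125362484, plus strand) was higher in the ipsilateral pericytes. Over replicates 1 to 6 it was 2541, 2530, 2811, 2819, 2385 and 2037 contralaterally and 3445, 3949, 3699, 4992, 4131 and 3973 ipsilaterally. The lowest ipsilateral library was above the highest contralateral one, and all 6 pools were higher by 0.40 to 0.96 (log2). The change was 0.68 ± 0.13, with an adjusted p of 0.0265 (0.0372 with the block). The call was lost in the fit of 48 libraries (adjusted p = 0.165), in replicates 1 to 4 alone (0.147) and without any single one of replicates 2 to 6 (0.0652 to 0.126), while the change stayed between 0.62 and 0.73 with each replicate left out. In replicates 5 and 6, where the microglia marker sum was 599 to 1102, Tnfrsf1a went from 2385 and 2037 to 4131 and 3973. What other cells added to the Tnfrsf1a values was not tested.

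In astrocytes, Tnfrsf1a was 2640, 1666, 1700, 1336, 2563 and 2999 contralaterally and 3947, 4088, 3981, 2058, 6025 and 5934 ipsilaterally. It was higher in 6 of 6 pools by 0.58 to 1.29 (log2), though the groups overlapped because replicate 4 was low in both hemispheres. The change was 0.99 ± 0.27, with an adjusted p of 0.225, and was called only with the block (0.00707). In endothelial cells, 5 of 6 pools were higher, from a mean of 2667 to 4074 (0.63 ± 0.35, adjusted p = 0.506), and in microglia 5 of 6 were lower, from 3701 to 3300 (-0.18 ± 0.17, adjusted p = 0.503), the same size as the median change of all genes there. The changes of Tnfrsf1a in astrocytes and microglia differed by 1.17 ± 0.36, which did not pass the test (adjusted p = 0.199).

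Tnfrsf1b (ENSMUSG00000028599, chr4:145213463-145246870, minus strand) passed the test in no cell type, also with the block, but its fitted change in pericytes was wide and positive. There it was 0, 241, 199, 1, 9 and 51 contralaterally and 419, 1008, 2099, 1040, 18 and 229 ipsilaterally. All 6 pools were higher, by 0.93 to 9.02 (log2), and the groups overlapped. The change of 4.38 ± 1.47 had an adjusted p of 0.167 (0.0979 with the block) and was called only in the fit of 48 libraries (0.00979). The summed microglia markers of the same ipsilateral libraries were 21238, 57313, 107426, 90760, 916 and 702. Replicate 6 had 229 counts of Tnfrsf1b at a low microglia marker sum, but also the highest sum of endothelial markers among the pericyte libraries, 6219 against 1263 to 2159 in the other ipsilateral ones. The part of other cells in these values was not tested.

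In endothelial cells Tnfrsf1b was 918, 414, 1472, 855, 896 and 1256 contralaterally and 425, 1202, 2294, 1415, 1446 and 1366 ipsilaterally (0.43 ± 0.38, adjusted p = 0.712). Replicates 5 and 6 had levels like the other pools, and their microglia markers summed to 1319 to 1580, so that Tnfrsf1b equalled 63.5% to 104% of the marker sum there, against 0.590% to 0.704% in contralateral microglia. The source of this RNA was not tested. In astrocytes Tnfrsf1b had a mean of 109 contralaterally and 363 ipsilaterally and was higher in 6 of 6 pools (1.58 ± 0.95, adjusted p = 0.658, 0.109 with the block). In microglia its means were 5116 and 4930, and ipsilateral replicate 2 stood lowest at 1316 while the other 11 libraries were at 4288 or more. The microglial change was -0.21 ± 0.32 (adjusted p = 0.691) and turned to 0.15 without replicate 2.

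Tnfrsf9 (ENSMUSG00000028965, chr4:150920155-150946102, plus strand) encodes 4-1BB, also called CD137, a TRAF-binding costimulatory receptor best known from activated T cells, and was called in pericytes and microglia. In microglia it was at 0 in all 6 contralateral libraries and at 47, 83, 38, 11, 75 and 96 in the ipsilateral ones, a mean of 58.3 ± 31.9 (SD, n = 6). Against a floor of 3 reads in each contralateral library (mean 3.06 normalised counts) it was at least 19.1-fold higher, and its adjusted p was 0.000239 (0.00284 with the block, and at most 0.00370 with each replicate left out). The groups did not overlap, and the lowest ipsilateral library, replicate 4, was at 11. With only genes of a mean of at least 50 tested, it was not among them. T cell markers, 4 of 7 of which are in the table, summed to 1 to 47 in contralateral and 5 to 47 in ipsilateral microglia. The 5 monocyte markers were higher in ipsilateral microglia, at a sum of 120 to 665 contralaterally and, over replicates 1 to 6, of 664, 3335, 2397, 1815, 1865 and 904 ipsilaterally, and their part in the Tnfrsf9 values was not tested.

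In pericytes Tnfrsf9 was 68, 82, 40, 106, 16 and 26 contralaterally and 572, 301, 416, 202, 628 and 678 ipsilaterally. Every ipsilateral library was above every contralateral one, and the difference within a pool was 0.92 to 5.21 (log2). The change was 3.17 ± 0.49, from a mean of 56.3 ± 34.9 to 466 ± 191, with an adjusted p of 0.0125 (0.0359 with the block). The call was lost without replicate 3 (adjusted p = 0.0642), without replicate 6 (0.0811) and in replicates 1 to 4 alone (2.30, 0.0870). The highest ipsilateral values, 628 and 678, were in replicates 5 and 6, where microglia markers were lowest, and no microglia library exceeded 96. Ipsilateral replicate 6 also had the highest sum of endothelial markers among the pericyte libraries, at 6219. What other cells added to the Tnfrsf9 values was not tested.

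Tnfrsf9 in endothelial cells was 14, 46, 72, 179, 11 and 35 contralaterally and 0, 51, 380, 117, 114 and 164 ipsilaterally, with the groups overlapping and 4 of 6 pools higher (0.58 ± 1.21, adjusted p = 0.904). That value turned to -0.50 in replicates 1 to 4 alone. In astrocytes it was 0 in 4 of 6 contralateral libraries and at 0 to 20 in all 12. The ligand of 4-1BB, Tnfsf9, was most abundant in microglia and rose there from a mean of 2880 to 6631 (1.21 ± 0.33, adjusted p = 0.0287, 5 of 6 pools higher), beside the higher monocyte markers. That call was lost without replicate 1, 3, 5 or 6 (adjusted p = 0.0658, 0.0645, 0.0616 and 0.0855), in replicates 1 to 4 alone (0.159) and in the fit of 48 libraries (0.567). In astrocytes it was called only with the block, from 143 to 648 (2.39 ± 0.83, adjusted p = 0.399, 0.00954 with the block). Its means were 144 and 508 in endothelial cells and 240 and 662 in pericytes, with adjusted p of 0.485 and 0.373.

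**Figure D4:**
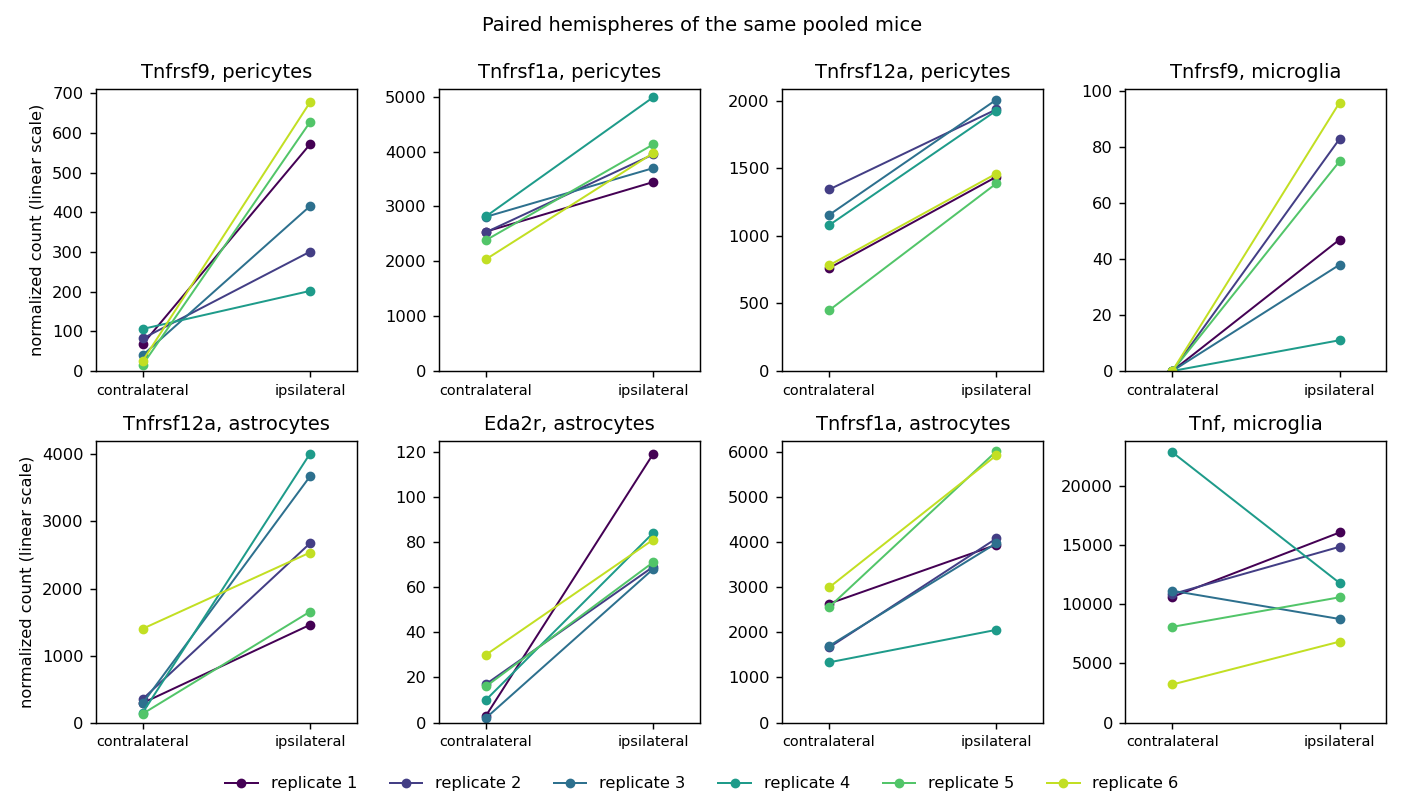
Normalised counts (linear vertical axis starting at 0) of called genes, of 2 genes called only with the block (Tnfrsf12a in pericytes, Tnfrsf1a in astrocytes) and of Tnf in microglia, with a line for each of the 6 pools from contralateral to ipsilateral. All lines rise except in Tnf in microglia, where 2 of 6 fall.

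Tnfrsf12a (ENSMUSG00000023905, chr17:23675447-23677449, minus strand) encodes Fn14, the receptor of TWEAK, and was the member with the smallest adjusted p in astrocytes. In astrocytes it was 291, 351, 289, 148, 131 and 1400 contralaterally and 1458, 2675, 3674, 4013, 1655 and 2537 ipsilaterally. All ipsilateral libraries were above all contralateral ones, although contralateral replicate 6, at 1400, stood far above the other 5. The change was 3.03 ± 0.48, from a mean of 435 ± 481 to 2669 ± 1032, with an adjusted p of 0.0159 (0.00496 with the block). It was 3.46 without replicate 6 (adjusted p = 0.000688), and the call was lost without any single one of replicates 1 to 5 (2.68 to 3.17, adjusted p 0.0576 to 0.141). In 6 of 6 pools the ipsilateral astrocytes were above the ipsilateral microglia, whose range was 885 to 1857, while the microglia markers in ipsilateral astrocytes summed to 1931 to 43415. A part of other cells in the astrocyte values was not tested.

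The astrocyte change of Tnfrsf12a was larger than that of endothelial cells and of microglia in a direct test in the fit of 48 libraries, which used the adjusted p alone. It exceeded the endothelial change by 2.68 ± 0.53 (log2, SE, adjusted p = 0.0178, 0.00598 with the block) and the microglial change by 2.47 ± 0.53 (adjusted p = 0.0178, 0.00710 with the block). These were the 2 differences called among 60 for the members, 1 of 10 for each of those pairs (0.0600% and 0.293% of all genes tested) and 0 of 10 between endothelial cells and pericytes (0.0267%), endothelial cells and microglia (0.273%), pericytes and astrocytes (0.00667%) and pericytes and microglia (0.727%). The difference from endothelial cells was not called without replicate 2, 3 or 4 (adjusted p = 0.111, 0.266 and 0.332), nor that from microglia without replicate 1, 3, 4 or 5 (0.0667, 0.188, 0.300 and 0.0705). With the block, the lower change of Tnfrsf9 in endothelial cells than in microglia was called as well (-5.04, adjusted p = 0.0729 without and 0.0449 with the block). Since contralateral microglia were all at 0, the size of that difference is set by the pseudocount, at -8.84 with 0.1 (adjusted p = 0.0243) and -1.75 with 10 (0.338), both without the block.

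In pericytes, Tnfrsf12a was 761, 1343, 1155, 1079, 449 and 782 contralaterally and 1437, 1936, 2008, 1927, 1388 and 1461 ipsilaterally. The groups did not overlap, and all 6 pools were higher by 0.53 to 1.63 (log2). The change of 0.93 ± 0.24 had an adjusted p of 0.0834 and was called with the block (0.0344). In microglia all 6 pools were higher, from a mean of 833 to 1226 (0.56 ± 0.23, adjusted p = 0.135). In endothelial cells contralateral replicate 2 stood at 6674 while the other 5 were at 951 to 1942, and the means were 2542 and 2746 (0.35 ± 0.36, adjusted p = 0.767). Tnfsf12, which encodes TWEAK, was low everywhere, at means of 21.3 to 86.0, and passed the test in no cell type. Its largest change was in microglia, from 86.0 to 34.8 (-1.31 ± 0.45, adjusted p = 0.0740, 6 of 6 pools lower).

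Eda2r (ENSMUSG00000034457, chrX:97333840-97377216, minus strand) encodes XEDAR, the receptor of the A2 form of ectodysplasin and a known p53 target. It was detected above the floor mainly in astrocytes, at 3, 17, 2, 10, 16 and 30 contralaterally and 119, 69, 68, 84, 71 and 81 ipsilaterally. The lowest ipsilateral library was above the highest contralateral one, and 5 of the 6 ipsilateral values lay within 68 to 84. The change was 2.97 ± 0.57, from a mean of 13.0 ± 10.4 to 82.0 ± 19.3, with an adjusted p of 0.0466 (0.0313 with the block). This p was close to the threshold, and the call was lost with a pseudocount of 0.1 (0.0770), with no filter on low values (0.0630), in the fit of 48 libraries (0.0554), in replicates 1 to 4 (0.0920) and without any single one of replicates 1 to 5 (2.58 to 3.17, 0.137 to 0.187).

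In microglia Eda2r was at 0 in all contralateral libraries and at 0 to 8 in the ipsilateral ones, so that no fold is given. In endothelial cells it was 4, 0, 0, 0, 0 and 7 against 0, 4, 10, 24, 8 and 17, and in pericytes 5, 0, 0, 0, 0 and 6 against 1, 31, 0, 19, 11 and 6, near the floor in most libraries. The differences between the astrocyte change and the others did not pass the test (adjusted p from 0.728 to 1.00). Eda, which encodes ectodysplasin and whose A1 and A2 forms are not separated by counts on genes, was at means of 104 and 71.2 in astrocytes (adjusted p = 0.921) and 54.3 and 35.0 in pericytes (0.734). It did not exceed a mean of 4.50 in endothelial cells and microglia.

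A further 2 receptors carry death domains, Tnfrsf10b and Fas. Tnfrsf10b (ENSMUSG00000022074, chr14:69767472-69784411, plus strand) encodes a TRAIL receptor and was mainly endothelial, at 125, 174, 109, 107, 31 and 92 contralaterally and 153, 219, 205, 253, 216 and 234 ipsilaterally. All 6 endothelial pools were higher ipsilaterally, the groups overlapping through contralateral replicate 2, and the change of 1.14 ± 0.40 did not pass the test (adjusted p = 0.251). In astrocytes it was 11, 13, 12, 3, 8 and 25 contralaterally and 28, 33, 34, 55, 38 and 48 ipsilaterally. These groups did not overlap, and the change of 1.80 ± 0.50 had an adjusted p of 0.216 (0.114 with the block). In pericytes it was at 1 to 63 in all 12 libraries and in microglia at 0 to 24. Tnfsf10, which encodes TRAIL, was also mainly endothelial, at a mean of 494 contralaterally and 232 ipsilaterally (-0.88 ± 0.54, adjusted p = 0.559), and in microglia it was at 64.7 and 20.0, lower in 6 of 6 pools (adjusted p = 0.131).

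Fas (ENSMUSG00000024778, chr19:34290659-34327770, plus strand) was at 3225, 6785, 3266, 3859, 4016 and 4540 in contralateral and at 5497, 2522, 1900, 3351, 2858 and 3309 in ipsilateral endothelial cells. It was lower ipsilaterally in 5 of 6 pools, the groups overlapped, and the change was -0.43 ± 0.26 (adjusted p = 0.548). In pericytes its means were 452 and 480, with 3 pools higher and 3 lower (-0.04 ± 0.31, adjusted p = 0.967), and in astrocytes 393 and 466 (0.20 ± 0.50, adjusted p = 0.939). In microglia, where it was lowest, it was 42, 73, 29, 127, 67 and 57 against 62, 237, 147, 131, 66 and 84, higher in 5 of 6 pools (0.85 ± 0.44, adjusted p = 0.215). Fasl, which encodes Fas ligand, was at 0 in all but 2 of the 48 libraries.

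The last 2 members, Ltbr and Cd40, signal through TRAF adaptors and are known for the non-canonical NF-κB route. Ltbr (ENSMUSG00000030339, chr6:125306571-125313885, minus strand), the lymphotoxin β receptor, was 893, 437, 489, 549, 716 and 943 in contralateral and 853, 1019, 1238, 923, 1163 and 1397 in ipsilateral astrocytes. It was higher in 5 of 6 pools, only replicate 1 being lower, and the change of 0.75 ± 0.22 had an adjusted p of 0.251 (0.0716 with the block). It was also higher in 5 of 6 pools of endothelial cells, from a mean of 1183 to 1773 (0.59 ± 0.28, adjusted p = 0.433), and of pericytes, from 651 to 848 (0.38 ± 0.16, adjusted p = 0.281). In microglia 3 pools were higher and 3 lower, with means of 1325 and 1438 (0.07 ± 0.23, adjusted p = 0.863).

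Of the ligands of this receptor, Ltb fell in microglia from 46.2 to 9.33 (-2.82 ± 0.75, adjusted p = 0.0270, 0.0489 with the block, 6 of 6 pools lower). The call was lost without replicate 1, 3 or 4 (adjusted p = 0.0714, 0.113 and 0.0863), with a pseudocount of 0.1 (0.0651) and in the fit of 48 libraries (0.111). B cell markers of the same libraries summed to 369 to 599 contralaterally and 76 to 395 ipsilaterally, and their part in the Ltb values was not tested. Lta and Tnfsf14 did not exceed a mean of 12 normalised counts in any group. Cd40 (ENSMUSG00000017652, chr2:165055627-165072948, plus strand) was 247, 432, 299, 270, 380 and 347 in contralateral and 527, 297, 387, 558, 468 and 491 in ipsilateral endothelial cells. The groups overlapped and 5 of 6 pools were higher (0.46 ± 0.24, adjusted p = 0.482). In pericytes, astrocytes and microglia it was at 0 to 157 in all libraries, and its changes there had adjusted p of 0.506, 0.574 and 0.398. Its ligand gene Cd40lg was looked for and was not among the genes of the deposited table.

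The other genes of the pathway were counted from lists of superfamily ligands, receptors, adaptors and shedding genes. At an unadjusted limma p under 0.05 were 1581 of all 13242 genes tested in endothelial cells and 2098 of 13597 in pericytes. In astrocytes they were 1416 of 15264 and in microglia 3725 of 13300. Counts at an unadjusted p here and below are to be read against these. Of 15 further TNF superfamily ligands in the table, 0 of 6 tested were called in endothelial cells, 0 of 8 in pericytes and 0 of 5 in astrocytes, and with the block 1 of 5 in astrocytes, which was Tnfsf9 (limma, with 1, 0 and 2 at an unadjusted p under 0.05). Of all genes, 0.491%, 1.02% and 0.341% were called in these cell types, and 1.59% in astrocytes with the block. In microglia, where 10.6% of all genes were called, 1 of 8 was called higher, Tnfsf9, and 1 lower, Ltb, with 7 of 8 at an unadjusted p under 0.05 and a median change of -1.62. A further 2 ligands, named after their values were seen, passed the adjusted p but not the rule of more than 10 normalised counts in all 6 libraries of a hemisphere. Tnfsf11, which encodes RANKL, was at 0 in all contralateral astrocyte libraries and at 10 to 38 in the ipsilateral ones (adjusted p = 0.00811, 0.0162 with the block). Tnfsf18, which encodes GITR ligand, was at 6 to 65 in contralateral and 0 to 10 in ipsilateral microglia (adjusted p = 0.0121, 0.0183 with the block).

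Of 19 further receptors, 10 were tested in microglia, where 10.6% of all genes were called. Of these 10, 1 was called higher and 2 lower, and 5 had an unadjusted limma p under 0.05. Tnfrsf26 was higher, at 108 against 21.3 (2.84 ± 0.79, adjusted p = 0.0315), beside the higher monocyte markers. Its call was lost without any single one of replicates 1, 3, 4, 5 and 6 (1.92 to 3.15, adjusted p 0.0512 to 0.0820), with a pseudocount of 0.1 (0.0868), with no filter (0.0509) and in replicates 1 to 4 alone (0.0690). In the other cell types, where 0.341% to 1.02% of all genes were called, limma called 0 of 10 to 12 receptors, with 2 to 4 at an unadjusted p under 0.05. The fitted change of Tnfrsf26 was larger in pericytes (4.23 ± 1.17, limma adjusted p = 0.103, 0.00512 in the fit of 48 libraries) than in microglia. It was also larger in astrocytes (3.76 ± 0.82, 0.0868 and 0.0263). Contralateral means there were near or below the floor, at 3.17 and 0.167. In endothelial cells the change was 0.31 ± 0.80 (0.930).

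Tnfrsf17 encodes BCMA and Tnfrsf13b encodes TACI, both receptors of BAFF and APRIL. In microglia, Tnfrsf17 went from a mean of 112 to 13.7 (-4.50 ± 0.97, adjusted p = 0.00866) and Tnfrsf13b from 1452 to 868 (-0.79 ± 0.20, adjusted p = 0.0193), each lower in 6 of 6 pools. The call of Tnfrsf17 held with each replicate left out (adjusted p at most 0.0477), whereas that of Tnfrsf13b was lost without replicate 1, 3 or 6 (0.0530, 0.0838 and 0.0547), in replicates 1 to 4 alone (0.0610) and in the fit of 48 libraries (0.826). The summed B cell markers given above were lower beside them, and their part was not tested. Of 29 adaptors and proximal signalling genes, 28 were tested in each cell type. Only Map3k14, which encodes the NF-κB-inducing kinase NIK, was called, in microglia, from 323 to 145 (-1.14 ± 0.33, adjusted p = 0.0390), and not with the block (0.0550), with no filter (0.0577), in replicates 1 to 4 alone (0.0975), in the fit of 48 libraries (0.487) or with any replicate left out (0.0535 to 0.150). Map3k14 was the 1 of 28 called in microglia, beside 10.6% of all genes, and with it 5 of 28 had an unadjusted limma p under 0.05. In endothelial cells, pericytes and astrocytes 0 of 28 were called, beside 0.491%, 1.02% and 0.341% of all genes. At an unadjusted limma p under 0.05 were 3, 4 and 1 of them. Of the 4 genes of TNF shedding (Adam17, Rhbdf1, Rhbdf2 and Timp3), 0 were called in any cell type, beside the same shares of all genes. At an unadjusted limma p under 0.05 were 1, 1, 2 and 0 in endothelial cells, pericytes, astrocytes and microglia.

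Over the 48 libraries, the genes most like each member were found by Pearson's r on log2(normalised count + 1) among 15002 other genes. The libraries share cell type and hemisphere, so that these values describe where a gene is expressed. Tnf was most like Ccl4 (0.981), Ccl3 (0.980) and Spi1 (0.980), genes of myeloid cells, and Tnfrsf1b most like Samsn1 (0.909). Tnfrsf12a was most like Fosl1 (0.818), Cxcl1 (0.744) and Lcn2 (0.725). Fas was most like Arl4a (0.934), Tnfrsf10b most like Shank3 (0.849), Tnfrsf9 most like Fam129b (0.844) and Ltbr most like Pxn (0.815). Eda2r was most like Serpina3m (0.787), Cd40 most like Igsf5 (0.783) and Tnfrsf1a, with the most even levels, most like Sbno2, at 0.710.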

How the data were processed

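The authors trimmed reads with Trimmomatic 0.38, aligned them to GRCm38 with STAR 2.6.1d, counted them on genes with featureCounts 1.6.3 and divided the counts by DESeq2 1.18.1 size factors. The values deposited by the authors are these normalised counts rounded to whole numbers, and were treated here as a score, not as raw counts. The planned count tests were therefore not run. Libraries had been made from about 250 pg of RNA with SMART-Seq HT. No comparison columns of the authors were used.

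The 10 members and the gene lists were chosen with earlier results of these data known. Named besides the members were the ligands of the member receptors, up to 5 called genes per list and cell type with the smallest adjusted p, and the 3 genes most correlated with each member.

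Tests were made in R 4.3.3 with limma 3.58.1 (lmFit, eBayes with a trend, two-sided) on log2(value + 1), with a separate fit per cell type (12 libraries, no block), over genes with a mean of at least 10 and with Benjamini-Hochberg adjustment. Fold changes on this scale understate those of low genes. The fits were tested on simulated data. Cell types were compared in a fit of 48 libraries. Alternatives were the pseudocounts 0.1 and 10, no filter, a mean filter of 50, the replicate block, rescaling within a cell type, the joint fit, no expression or fold rule, replicates 1 to 4 alone and each replicate left out.

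Both hemispheres came from the same pooled mice, and the same replicate number was taken to mean the same pool, which the labels do not state. Deviations from the group means correlated at a mean r of 0.23, 0.23, 0.38 and 0.14 between same-numbered libraries of endothelial cells, pericytes, astrocytes and microglia, and at -0.04, -0.04, -0.08 and -0.03 between others. Single same-numbered pairs went down to 0.01, -0.07, 0.02 and -0.03 and up to 0.55, 0.42, 0.66 and 0.35. The worth of 1 read, 0.67 to 2.37 normalised counts, was estimated from the spacing of low values. Exon lengths came from GENCODE M21, in which 6 of 10 members have the same start and end, and no exon of a member overlaps another gene. Upstream sequences came from RefSeq. Summaries and figures were made with Python 3.11.15, pandas 2.3.3, numpy 2.4.6, scipy 1.17.1 and matplotlib 3.10.9.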

Additional observations from a re-analysis of the deposited data

Results flagged for a closer look

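Of 78 groups of 6 libraries with any spread (10 genes in 8 groups, without those at 0 throughout), 11 held a library set apart from the other 5 by more of the range than Dixon's 95% critical value allows. That value holds for normally distributed data and was applied to counts without a log. No chance rate is therefore given, and the flags only mark libraries to look at. In contralateral endothelial cells, replicate 2 was high for Tnfrsf12a (6674, others 951 to 1942) and for Fas (6785, others 3225 to 4540), and replicate 4 for Tnfrsf9 (179, others 11 to 72), while ipsilateral replicate 1 was low for Ltbr (855, others 1776 to 2299). In contralateral astrocytes, replicate 6 was high for Tnfrsf12a (1400, others 131 to 351) and for Tnfrsf9 (20, others 0 to 5), and replicate 2 for Tnfrsf1b (375, others 12 to 139). In ipsilateral astrocytes, replicate 1 was high for Eda2r (119, others 68 to 84) and replicate 4 for Cd40 (82, others 4 to 27). In pericytes, contralateral replicate 2 was high for Tnf (528, others 0 to 78) and ipsilateral replicate 6 for Tnfrsf10b (63, others 1 to 21). The summed microglia markers were highest of their group in contralateral replicate 2 of endothelial cells (59314), pericytes (42010) and astrocytes (50936), and the summed endothelial markers highest of the pericyte libraries in ipsilateral replicate 6 (6219, other ipsilateral ones 1263 to 2159). Their part in these values was not tested.

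The change of Tnfrsf12a between hemispheres differed between cell types by a direct test, by -2.68 for endothelial cells minus astrocytes and by 2.47 for astrocytes minus microglia (limma adjusted p = 0.0178 for both).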

How the results depend on the processing

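The planned edgeR and DESeq2 tests were not run, since the values are rounded after normalisation. In pericytes the 2 calls became 0 with replicates 1 to 4 alone, and 0 to 2 with each replicate left out. In astrocytes the 2 calls became 1 with the pseudocount 0.1, with a mean filter of 50 (which leaves Eda2r untested), without any filter, with replicates 1 to 4 alone and in the joint fit, and 0 to 2 with each replicate left out. In microglia the single call became 0 with the mean filter of 50, which leaves Tnfrsf9 untested. The 2 differences of change between cell types became 0 to 2 with each replicate left out. The 39 called contralateral levels stayed at 36 to 39 with each replicate left out, and the endothelial count was 0 under every alternative run. Beyond the mean filter, the cause was not tested.

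Of 42 single-gene changes, the replicate block, which pairs the hemispheres, raised 3 past the threshold, lost 1 and reversed 0. Over all alternatives, 509 of 579 values kept sign and call, 58 lost the call, 4 gained it and 8 changed sign, all 8 in changes that were not called. These were Tnfrsf9 in endothelial cells (-0.50) and Tnf in microglia (-0.06) with replicates 1 to 4 alone, Fas in pericytes after rescaling (0.02) and with each replicate left out (-0.19 to 0.15, above 0 without replicate 2 or 5), and, with each replicate left out, Fas in astrocytes (-0.08 to 0.48, below 0 without replicate 1), Tnfrsf1b in microglia (-0.35 to 0.15, above 0 without replicate 2) and Ltbr in microglia (-0.13 to 0.24, below 0 without replicate 3). A library of 4900000 reads puts 3 reads at several normalised counts, so that differences of genes below about 10 are not resolved.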
